A study of Caenorhabditis elegans with 2 samples.

Results

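The 9 genes described here, lin-14, lin-28, hbl-1, lin-41, lin-29, lin-42, daf-12, lin-46 and lin-66, belong to the heterochronic pathway of Caenorhabditis elegans. They were chosen by name. The 6 nuclear chromosomes carry 19973 annotated protein-coding genes in all, and each member was examined over its annotated body and 2000 bp to each side. SET-16, a histone H3 lysine 4 methyltransferase related to mammalian MLL3 and MLL4, was mapped by ChIP-seq with an anti-GFP antibody in whole L4 larvae of strain RW12223. In these animals, 48 hours of age and synchronised by L1 starvation after bleaching, the endogenous set-16 locus carries TY1, EGFP and 3xFLAG tags inserted by CRISPR. There were 2 biological replicates of this 1 group, so no condition is compared and no difference between conditions was tested. Whole animals were used, so a peak does not say in which tissue SET-16 was present, and untagged animals were not analysed here.

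The heterochronic pathway sets the order of stage-specific cell fates through the larval stages, above all in the seam cells of the hypodermis. Early-acting proteins such as LIN-14 and LIN-28 are turned off by microRNAs of the lin-4 and let-7 families, and the loss of LIN-41 and HBL-1 activity late in larval life lets the transcription factor LIN-29 direct the switch to adult fates at the end of L4. Hormone signalling through DAF-12 and the Period-like protein LIN-42 links this order to growth and to the moulting cycle.

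SET-16 peaks were called at 8 of the 9 genes (88.9%, exact 95% binomial interval 51.8 to 99.7), and lin-46 had none. The count includes lin-29, whose only conservative summits lay beyond the end of the gene, in a coding exon of hmg-12. Over all protein-coding genes, 26.1% had a summit in the same kind of window. The peak list used throughout is the conservative list made from both libraries, with 5795 peaks. All 8 genes also had a summit in each of the replicate lists, against 18.6% of protein-coding genes with a summit in all 3 lists. Member genes are long, and longer windows hold more summits: among genes of at least 5000 bp, 46.9% had a summit, and 7 of 7 members of that length did. In all, the 9 windows spanned 148 kb and held 25 summits in 23 distinct intervals, or 0.168 summits per kb against 0.0578 per kb of the nuclear genome. These densities are not matched for GC content. Against DNA of the same GC content, described below, the ratio of observed to expected was 1.31 (counting interval 0.849 to 1.94). The members were chosen with earlier results known, so these counts carry no test.

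By the strongest peak in each window, the order was lin-42, daf-12, lin-66, lin-14, lin-29, lin-41, hbl-1 and lin-28. This order depends on the flank. With 5000 bp to each side the strongest hbl-1 peak lay at the percentile 89.6 of signal in place of 62.8, above lin-29 (81) and lin-41 (79.1). In gene bodies with no flank that of lin-66 lay at 36.4 in place of 98.1, and hbl-1, lin-41 and lin-29 had none. The first 4 of these genes held 5 of the peaks in the top 2% by signal, whereas 0.876% of protein-coding genes had such a peak. That share is over genes of every length and GC content, and was matched to these genes in neither. The signal is the value that the authors' peak caller gave each peak. The labels and readme do not say on what scale, so signals are ordered within 1 list at a time.

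DNA is shown for the 5 member peaks of highest signal because 3 of them, at lin-42 and lin-66, share letters that are referred to below, while those of daf-12 and lin-14 hold none of the letters marked. Each line gives 201 bases centred on a conservative summit, on the plus strand of ce11 (the same assembly as WBcel235), read from the RefSeq genome. Capitals mark matches on either strand to GAGAGA (a GA repeat), to AGTGCA (an element bound by nuclear hormone receptors such as DAF-12) or to GGAGACGCAGA, a word described below.
lin-42, chrII:1237956-1238156, intron, signal 2212: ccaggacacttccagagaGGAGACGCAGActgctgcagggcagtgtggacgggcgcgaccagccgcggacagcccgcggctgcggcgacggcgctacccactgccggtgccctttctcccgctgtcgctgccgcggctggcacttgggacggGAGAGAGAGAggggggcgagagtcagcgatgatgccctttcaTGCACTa
lin-42, chrII:1246938-1247138, intron, signal 2179: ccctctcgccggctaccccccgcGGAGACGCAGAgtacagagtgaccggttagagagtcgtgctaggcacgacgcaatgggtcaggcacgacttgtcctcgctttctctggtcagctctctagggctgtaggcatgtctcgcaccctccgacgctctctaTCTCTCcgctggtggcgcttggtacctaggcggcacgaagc
daf-12, chrX:10637369-10637569, intron, signal 1955: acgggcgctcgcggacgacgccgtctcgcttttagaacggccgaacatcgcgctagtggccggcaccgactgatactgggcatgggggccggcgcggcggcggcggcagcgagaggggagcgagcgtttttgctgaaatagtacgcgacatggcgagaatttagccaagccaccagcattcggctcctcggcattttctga
lin-66, chrIV:13887561-13887761, upstream, signal 1342: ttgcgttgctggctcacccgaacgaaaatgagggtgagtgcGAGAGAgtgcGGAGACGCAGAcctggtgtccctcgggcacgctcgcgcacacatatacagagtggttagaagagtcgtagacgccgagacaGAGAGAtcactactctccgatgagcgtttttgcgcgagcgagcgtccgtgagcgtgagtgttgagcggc
lin-14, chrX:11473319-11473519, intron, signal 1335: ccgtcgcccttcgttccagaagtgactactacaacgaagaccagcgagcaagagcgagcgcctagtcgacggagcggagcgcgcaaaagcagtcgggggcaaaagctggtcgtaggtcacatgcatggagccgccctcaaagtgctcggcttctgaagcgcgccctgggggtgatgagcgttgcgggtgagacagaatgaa

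**Figure D1:**
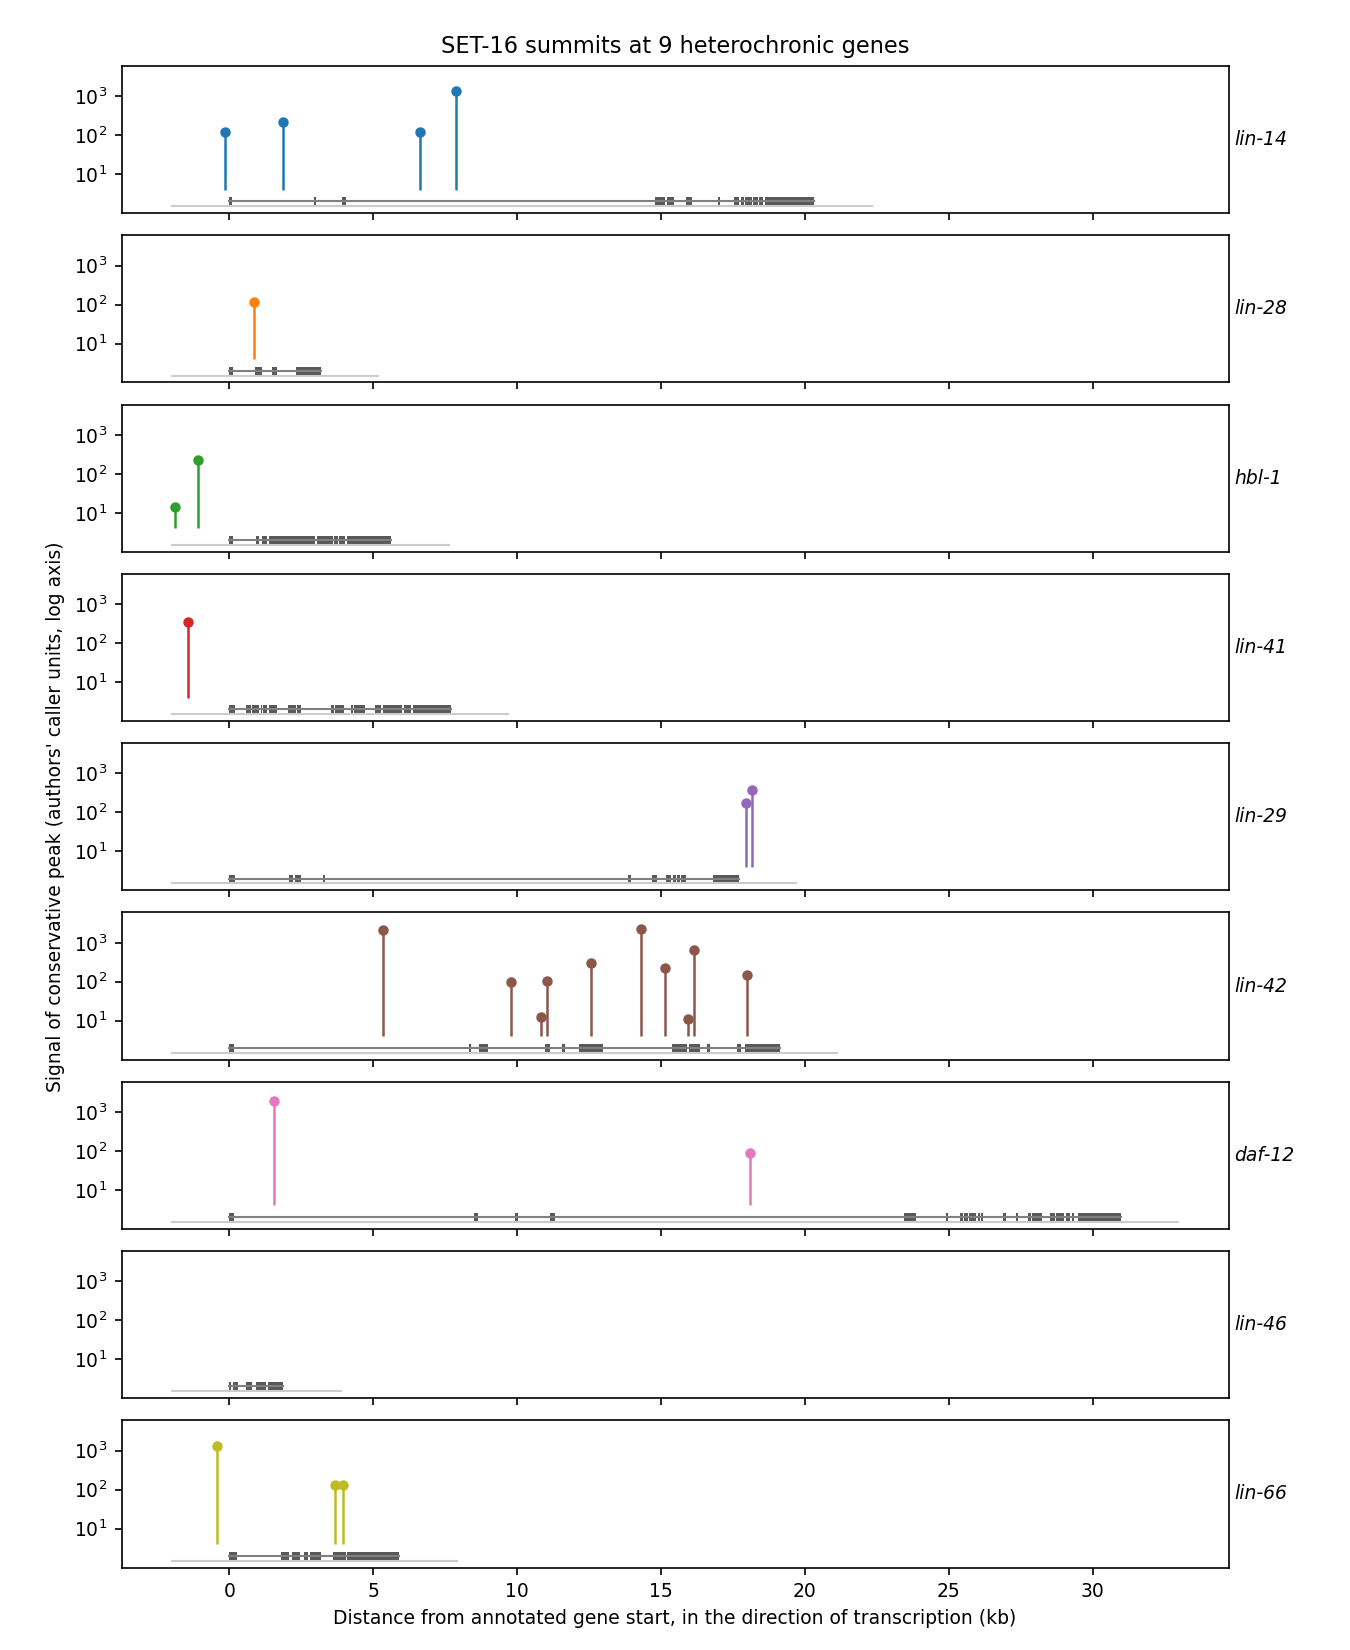
Summits of the conservative list at each gene, plotted by distance from the annotated gene start in the direction of transcription (kb), with signal on a log axis in the units of the authors' caller. Dark boxes at the base of each panel are exons of any transcript and the pale line is the window searched; lin-42 holds 10 summits along its body, and the lin-46 panel holds none.

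lin-42 (WBGene00018572, chromosome II 1233236 to 1252359, minus strand) had the most summits and the strongest peak of the 9 genes. Its product is the worm relative of the circadian protein Period, which cycles with the moults and restrains microRNA transcription. All 10 conservative summits lay inside the gene. Of 19973 protein-coding genes of every length and GC content, 13 (0.0651%), lin-42 among them, had as many or more in their windows. At the GC content of the lin-42 window, 8.98 tiles of 200 bp were expected to hold a summit, as described below, and 10 did. The strongest summit lay in an intron 14.3 kb from the gene start, with a signal of 2212, rank 29 of 5795. Replicate 1 gave it 1239 and replicate 2 gave it 974, ranks 41 and 12 in their lists. The next, with a signal of 2179 and rank 33, lay in the long first intron 5.32 kb from the start, over exons of the noncoding RNA genes F47F6.13 and F47F6.15. There replicate 1 gave 1466 and replicate 2 gave 715. The intron site nearer the gene start was thus the stronger of the pair in replicate 1 and the weaker in replicate 2, and their order is not settled by these libraries.

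The other lin-42 summits were spread over the 3 prime portion of the gene, where the shorter annotated transcripts begin. A coding exon 16.2 kb from the start carried a summit with a signal of 646, with 421 in replicate 1 and 225 in replicate 2. Another coding exon summit had a signal of 297 (197 and 114 in the replicates) and lay 305 bp downstream of the start of a shorter transcript. A summit with a signal of 219 (151 and 72.5) lay 247 bp upstream of a further transcript start, and one with 146 (78.7 and 68) lay 257 bp downstream of the start closest to the end of the gene. These 6 sites were called in both replicates. Summits with signals of 106 and 101 were called within 100 bp in replicate 2 alone, at 67.8 and 73.8. The last 2 had signals of 12.7 and 11.1, at the foot of the list, and neither was called in replicate 2. The second whole-series list added summits of 110 and 91.6, in a coding exon 103 bp downstream and an intron 585 bp upstream of internal transcript starts. The gene whose strongest peak came next above lin-42 in signal was C53H9.2 (2215) and the one next below was F01D5.10 (2211), among 5208 protein-coding genes with a summit. Nothing else about those genes was compared.

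daf-12 (WBGene00000908, chromosome X 10635908 to 10666875), which encodes the nuclear hormone receptor for dafachronic acids, had 1 strong peak near its start. The summit lay in the first intron, 1561 bp downstream of the gene start, with a signal of 1955 and rank 40. Replicate 1 gave 1402 (rank 32) and replicate 2 gave 565 (rank 88), so it was among the strongest sites of each. In replicate 2 the same interval carried another summit, with a signal of 158. A conservative summit of 88 lay deep in the gene, 18.1 kb from the start, and was called in neither replicate list nor in the second whole-series list. Replicate 1 alone called an intron summit of 90.7 at 742 bp from an internal transcript start. Over a window of 34968 bp, the longest of the 9, daf-12 thus had a single site that every list shared.

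lin-66 (WBGene00001562, chromosome IV 13888079 to 13893986) acts by limiting lin-28 expression, and was the member whose strongest peak lay closest to its annotated gene start. The summit stood 418 bp upstream of the gene start in intergenic DNA, with a signal of 1342 and rank 113. Replicate 1 gave 902 and replicate 2 gave 461. A pair of weaker summits, of 134 and 130, lay in coding exon 359 bp and 89 bp downstream of the start of a shorter transcript. Their signals were 57.4 and 69.2 in replicate 1 and 73.4 and 73.2 in replicate 2. All 3 sites were therefore called in both libraries.

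lin-14 (WBGene00003003, chromosome X 11465560 to 11485871), the early-acting transcription factor that specifies L1 fates, had its strongest peak in an intron. That summit lay 7.86 kb from the gene start, with a signal of 1335 and rank 114, next to lin-66 in the order. Replicate 1 gave 925 and replicate 2 gave 416. The pair lin-66 and lin-14 stood in the opposite order in replicate 1, so they do not differ beyond the spread between libraries. A summit of 221 at 1875 bp from the start lay over an exon of the noncoding RNA gene T25C12.7 and was called in both replicates, at 86.8 and 133. The summit nearest the gene start, 160 bp upstream, had a signal of 124 and was called in replicate 2 alone, at 90.9. A further intron summit, also of 124, had 38.4 in replicate 1 and 89.1 in replicate 2. Within each library the strong intron site came first, at rank 79 of 5876 in replicate 1 and 181 of 4377 in replicate 2, and the site at 1875 bp came next, at ranks 3334 and 1251.

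hbl-1 (WBGene00001824, chromosome X 5822142 to 5827755), a hunchback-like zinc finger gene, had no summit in its body. Its main summit lay 1086 bp upstream of the gene start, where the signal was 222 (rank 2158). Replicate 1 gave it 114 and replicate 2 gave it 119. Another at 1890 bp upstream, over an exon of the noncoding RNA gene F13D11.20, had a signal of 13.9 and no counterpart in either replicate list. lin-41 (WBGene00003026, chromosome I 9334800 to 9342496, minus strand), a TRIM-NHL RNA-binding protein gene and a main target of let-7, likewise had its only summit upstream, at 1432 bp, in a window it shares with the neighbouring gene M04C9.2. The lin-41 signal was 357, with 183 in replicate 1 and 173 in replicate 2. The lin-41 site was above the hbl-1 site in the conservative list and in both replicate lists.

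lin-28 (WBGene00003014, chromosome I 8407630 to 8410804, minus strand), the RNA-binding protein that blocks let-7 processing, had 1 weak site. The summit lay 848 bp into the gene, in an intron, and 36 bp upstream of the start of the shorter annotated transcript. Its signal was 116 (rank 4226), with 47.4 in replicate 1 and 69.7 in replicate 2. It was the weakest of the 8 strongest peaks in the conservative list and in each replicate list.

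lin-29 (WBGene00003015, chromosome II 11917642 to 11935343, minus strand), the zinc finger gene that drives the larval-to-adult switch at the stage sampled, had no conservative summit of its own. The 2 summits in its window, of 382 and 176, shared an interval beyond the end of the gene, in a coding exon of hmg-12. They lay 662 bp and 865 bp from the start of hmg-12, and their distance from the start of lin-29 was over 17 kb, at 18168 bp and 17965 bp. Replicate 1 gave the stronger 276 and replicate 2 gave it 108. Inside lin-29, an intron summit over an exon of the noncoding RNA gene Y17G7A.4 was called in the second whole-series list (82.3) and in replicate 2 (67.9). In the ranked version of the conservative list that site had an irreproducible discovery rate (IDR) of 0.0476, above the limit of 0.01.

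lin-46 (WBGene00003031, chromosome V 12968855 to 12970730) encodes a gephyrin-like protein that opposes HBL-1 activity. No summit fell in its window in any of the 4 thresholded lists, nor among the 30466 ranked peaks before the threshold, where 51.5% of protein-coding genes had one. With 1876 bp it is the shortest of the 9 genes. The depth behind these lists is unknown, since no read counts come with them, and a weak site below detection cannot be told apart from none.

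The replicates gave the same 8 genes but not every site. Of the 25 summits, 17 had a thresholded summit within 100 bp in each of the replicates. Another 2 were matched by replicate 1 alone and 3 by replicate 2 alone, which left 3 unmatched. Over all conservative peaks 56% were matched in both. At the matched member summits the ratio of replicate 1 to replicate 2 signal ran from 0.43 to 2.55 with a median of 1.27, and over all 3243 matched peaks the median was 1.58 (quartiles 1.05 and 2.05). The 2 genes at the top of the order, lin-42 and daf-12, kept their places in both replicates, as did lin-28 at the bottom. lin-29, lin-41 and hbl-1 changed places: lin-29 was highest of the 3 in replicate 1 (276, with 183 and 114) and lowest in replicate 2 (108, with 173 and 119).

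**Figure D2:**
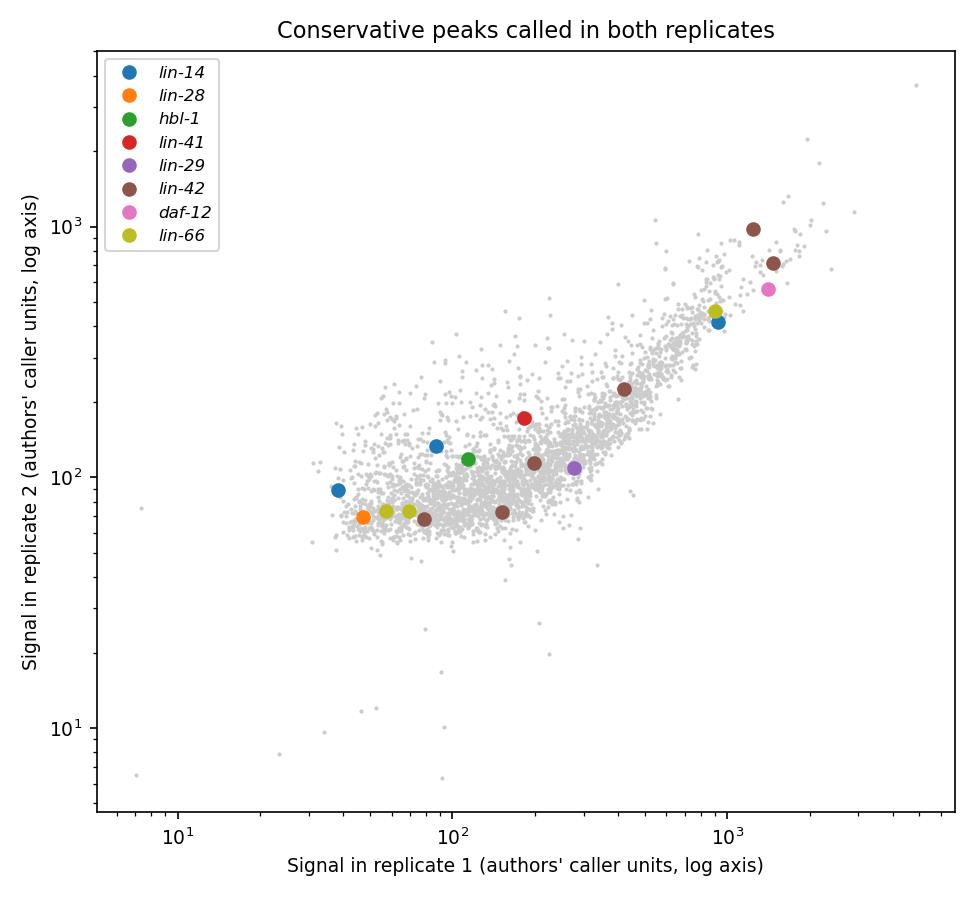
Signal in replicate 1 (x axis) and replicate 2 (y axis), both log axes in the units of the authors' caller, for conservative peaks with a thresholded summit within 100 bp in both replicates. Grey points are the other peaks and coloured points the member summits; the lin-42, daf-12, lin-66 and lin-14 sites with replicate 1 signals from 902 to 1466 stand apart from the remaining member summits.

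Most member summits lay within genes and away from annotated gene starts. Of the 25, 12 were in introns and 6 in coding exons of the member itself, and 7 lay outside it. All 10 summits of lin-42 were among those inside, while hbl-1, lin-41 and lin-29 had none inside. Shares of all conservative summits in these places are not given here, so the counts are not called a trait of the members. Only 2 lay within 500 bp of the annotated gene start, those of lin-66 and lin-14, while 8 lay within 500 bp of the start of some annotated transcript of the gene. The 6 beyond that pair were at lin-42 (3), lin-66 (2) and lin-28 (1). Annotated starts in this species are often trans-splice sites, so distances to them need not be distances to the point of initiation.

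Member summits were GC-rich, as were summits in general. GC content within 100 bp of the 25 summits ran from 41.8% to 68.7% with a median of 54.7%, and the median over all conservative summits was also 54.7%. The 5 strongest member sites had GC contents of 68.7% and 62.7% at lin-42, 63.7% at daf-12, 58.7% at lin-66 and 60.7% at lin-14. The 3 summits with signals under 20 had 41.8% at hbl-1 and 43.8% and 47.3% at lin-42.

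**Figure D3:**
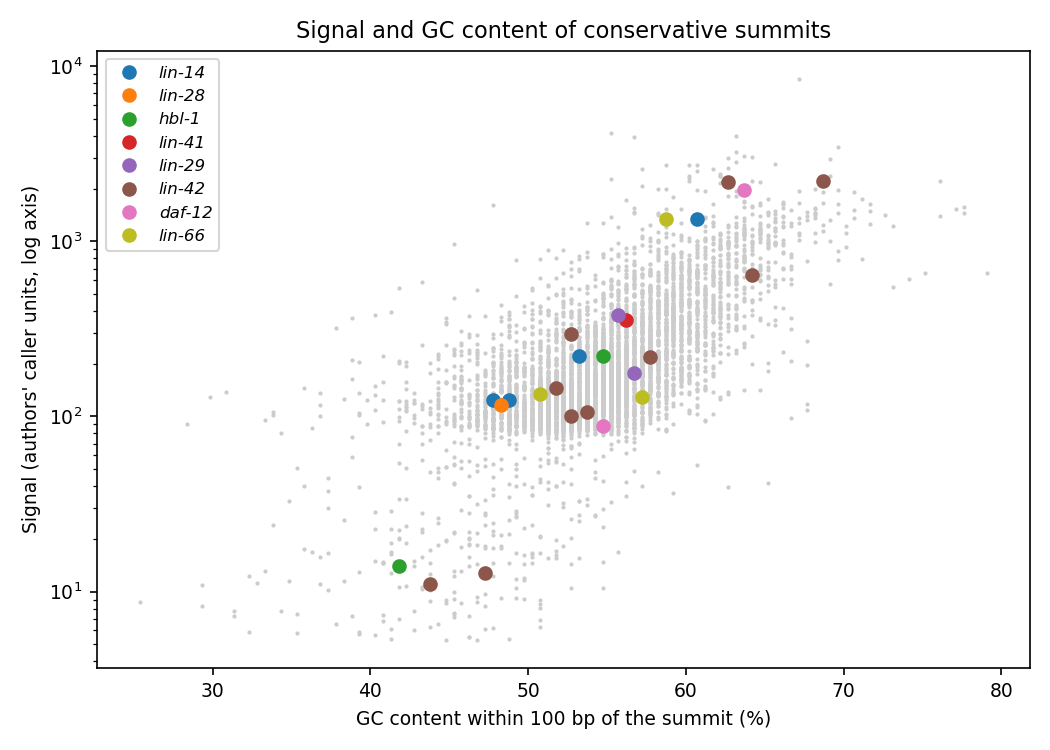
GC content within 100 bp of each conservative summit (x axis, %) and its signal (y axis, log axis, units of the authors' caller). Grey points are the other summits and coloured points the member summits, which run from 41.8% GC at hbl-1 to 68.7% GC at lin-42 and lie within the range of the other summits.

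Set against DNA of the same GC content, the windows held a number of summits close to the expectation for lin-42. It was above the expectation for lin-14, lin-66, hbl-1 and lin-28, among others. However, 1 of the 4 lin-14 summits was called in replicate 2 alone. Likewise, 1 of the 2 hbl-1 summits, with a signal of 13.9, was called in neither replicate list. The genome was cut into tiles of 200 bp, and each tile was given the genome-wide share of tiles with a summit in its stratum of 2% GC. Over the 9 windows 25 tiles held a summit and 19.1 were expected, a ratio of 1.31 with a counting interval of 0.849 to 1.94. lin-42 had 10 against 8.98 expected, with 18 tiles of at least 50% GC in its window. lin-14 had 4 against 1.83, hbl-1 had 2 against 0.569, lin-66 had 3 against 1.76, and lin-28 had 1 against 0.114. daf-12 (2 against 2.68) and lin-29 (2 against 2.29) had slightly fewer than expected, and lin-41 had 1 against 0.785. For lin-46, whose GC-richest tile reached 44%, the expected number was 0.0337. From GC content alone, 5.92 of the 9 genes would be expected to hold a summit, compared with the 8 that did. Over all protein-coding genes the same sum gave 5333 where 5208 were observed. The counts per gene are too small to separate most members from their expectation.

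**Figure D4:**
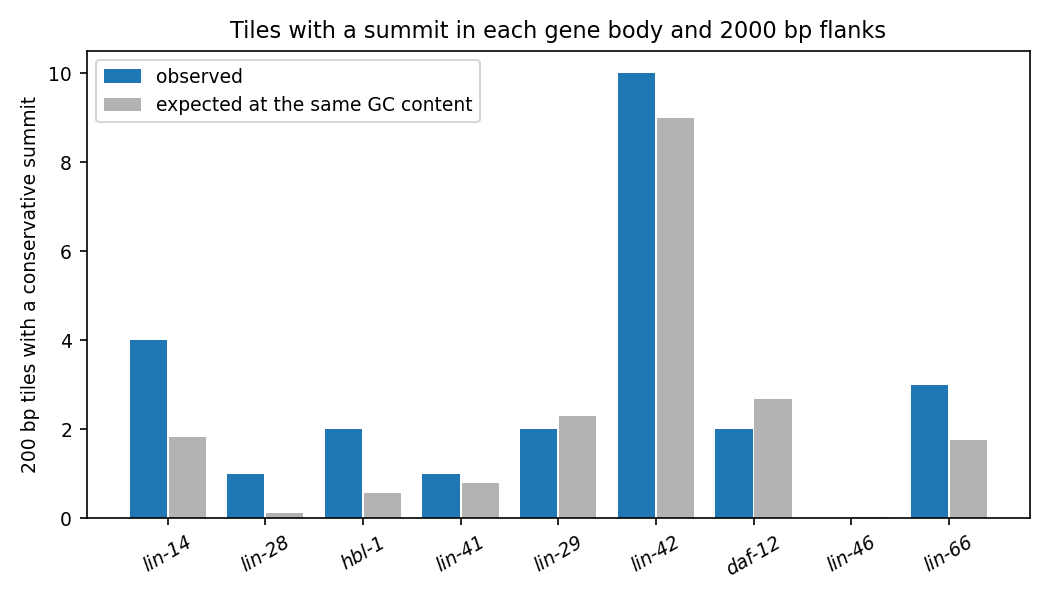
Number of 200 bp tiles with a conservative summit in each gene body and 2000 bp flanks (blue bars) and the number expected from the GC content of the tiles (grey bars). The bars of lin-42 are close (10 and 8.98), those of lin-14 differ more (4 and 1.83), and lin-46 has no blue bar.

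Some of the strongest sites shared a word of sequence. The longest word found at 3 or more summits of at least 2 members, leaving out chromosome I and with it lin-28 and lin-41, had 11 bases. There were 2 such words. GGAGACGCAGA lay at both of the strongest lin-42 sites and at the upstream lin-66 site. It is close to the ethanol and stress response element described in this species, which is linked to stress-induced transcription. The same word lay within 100 bp of 1.29% of all conservative summits, in 0.119% of windows of 201 bp across the genome and in 0.493% of those with at least 50% GC. The other word, AAAAAAGAAGA, lay at weaker sites of hbl-1 (signal 13.9), lin-14 (124) and lin-42 (12.7). It lay at 0.656% of all conservative summits and in 0.407% of genome windows. The hbl-1 and lin-42 sites are at the foot of the list and had no ranked peak within 100 bp in either replicate. The words were chosen after the sequences were seen, so these shares are a description.

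Among the 6 motifs searched on both strands, GAGAGA was the most frequent at member summits. It lay at 9 of 25 (36%), compared with 24.3% of all conservative summits, 9.99% of genome windows and 15.9% of those with at least 50% GC. The 9 included both of the strongest lin-42 sites and the upstream lin-66 site, but neither the strongest daf-12 site nor the strongest lin-14 site. AGTGCA lay at 4 of 25 (16%), with 6.49% of all summits and 6.98% of GC-rich windows, and 2 of the 4 were at lin-42. The E-boxes CAGCTG and CACGTG each lay at 2 of 25 (8%), with 12% and 6.16% of all summits. TTTCGCGC, of the E2F type, and TGATAA, of the GATA type, lay at 0 of 25, with 1.98% and 4.38% of all summits. A match is a run of letters and not a known site of any factor.

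Genes that work with the 9 were examined through a list of 27 regulators, cofactors and targets drawn up from knowledge of the pathway. A conservative summit lay in the window of 19 (70.4%, exact 95% binomial interval 49.8 to 86.2), and 15.9 were expected from GC content. Counted in tiles, 39 held a summit and 35.4 were expected, a ratio of 1.1 with a counting interval of 0.783 to 1.5. Of the 21 protein-coding genes in the list 16 had one, against the 26.1% of all protein-coding genes. These genes are long too: 16 of the 21 have at least 5000 bp, and 14 of those 16 had a summit, against 46.9% of protein-coding genes of that length. Both replicate lists also held a summit for 18 of the 19.

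Of the 5 microRNA genes in the list, 3 had a conservative summit, and those of lin-4 and mir-241 were within the top 2% by signal. lin-4, which represses lin-14 and lin-28, had a summit 346 bp upstream of its hairpin, over an exon of the noncoding RNA gene F59G1.12 and in an intron of its host gene F59G1.4, with a signal of 1690 (rank 53). mir-241, a let-7 family member that represses hbl-1, had one 517 bp upstream with a signal of 2165 (rank 34). let-7 itself, the repressor of lin-41, had one of 769 inside its annotated primary transcript and also in the window of a neighbouring gene. The windows of mir-48 and mir-84, of the same family, held no conservative summit, the nearest lying 2291 bp and 2301 bp from their starts. The summit nearest mir-48 was the same one given for mir-241. Of the replicate lists, that of replicate 2 held a summit in the mir-48 window and that of replicate 1 held one in the mir-84 window. Over all 261 annotated microRNA genes, 27.2% had a summit in the window. At the same GC content, the expected number of tiles with a summit was 0.787 for lin-4, 0.651 for let-7 and 1.19 for mir-241, each with 1 observed. For mir-48 and mir-84 it was 0.267 and 0.0931, with none observed. Counts this small cannot separate a gene from its expectation, and the expectation does not address signal. Why these genes had peaks was not tested.

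Cofactors of DAF-12, LIN-42 and LIN-29 also had strong peaks, those of din-1 and kin-20 within the top 2% by signal. din-1, the DAF-12 corepressor, had 5 summits with a highest signal of 1973 at 1515 bp upstream of its start, beside 1955 at daf-12 itself. kin-20, a casein kinase whose mammalian relatives phosphorylate Period, had 6 summits with a highest signal of 1387 in an intron. mab-10, the coactivator of LIN-29, had 3 with a highest signal of 1268 at 326 bp upstream. At the same GC content, the expected number of tiles with a summit was 5.93 for din-1, 3.26 for kin-20 and 1.97 for mab-10. The count of din-1 was thus below its expectation, and those of kin-20 and mab-10 were above theirs. dre-1, an F-box gene that acts with daf-12, had 557 in an intron. No summit was called at daf-9, which makes the DAF-12 hormone.

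Of the microRNA effector genes, ain-1, a GW182-type partner of Argonaute, had the strongest peak (2199, 644 bp upstream), and ain-2 had a weak one of 126. The Argonaute genes alg-1 and alg-2 had coding exon peaks of 168 and 330. xrn-2, an exonuclease that degrades microRNAs, had 575, and nhl-2, a cofactor of the silencing complex, had 983. myrf-1, which promotes lin-4 transcription, had the highest signal of the list (2626, 318 bp upstream), and its relative myrf-2 had 423. Transcription factor genes with peaks were blmp-1 (234), nhr-23 (365) and elt-3 (376), and the Pumilio-family gene puf-9 had 527. The strongest peaks of ain-2, xrn-2, nhl-2 and puf-9 each lay in the window of a neighbouring gene as well. The other genes with no conservative summit were pup-2, pan-1, nhr-85, lep-2 and the noncoding RNA gene lep-5.

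**Figure D5:**
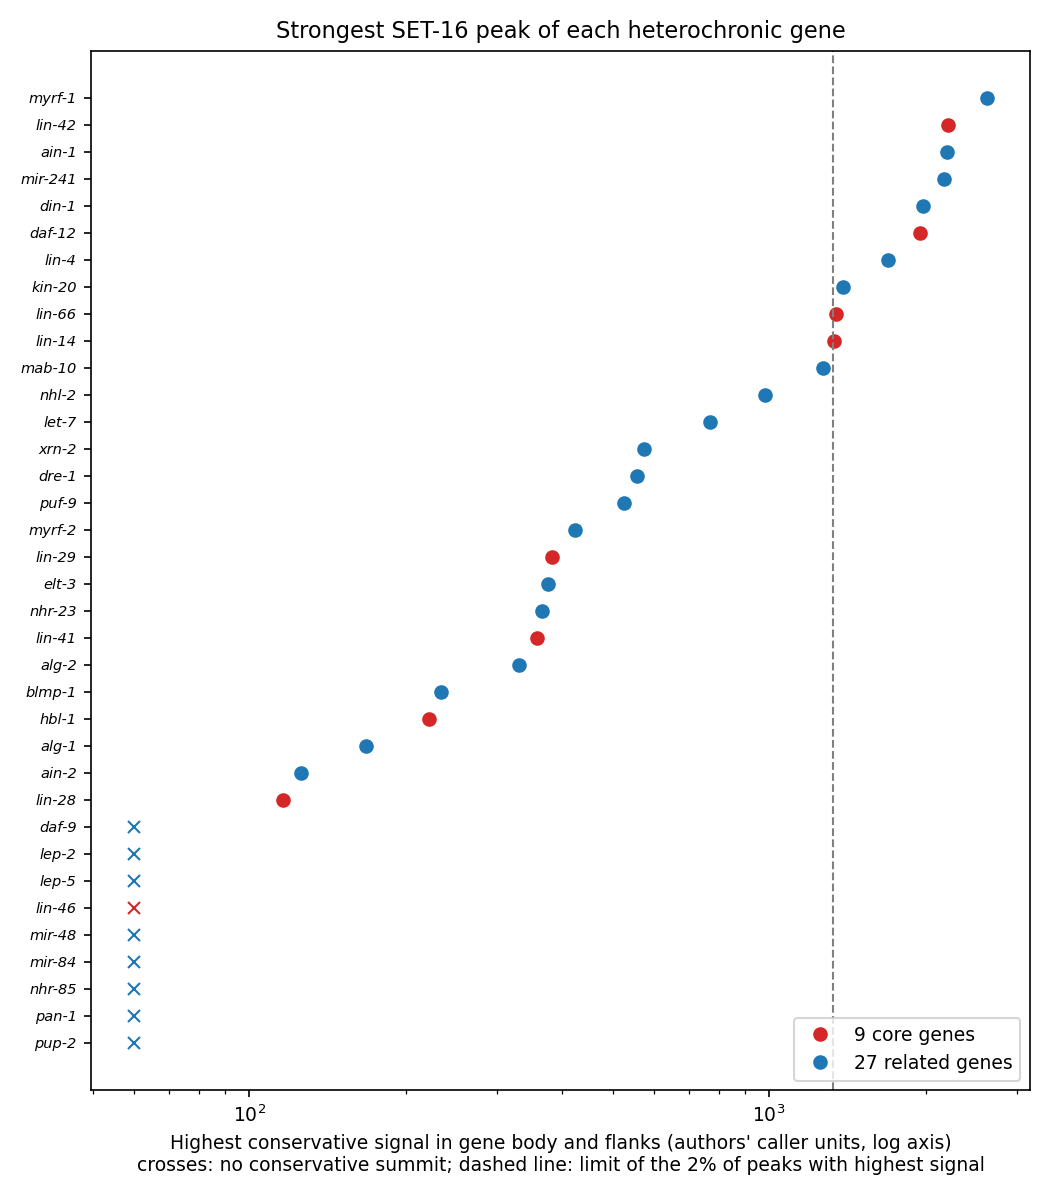
Highest conservative signal in the gene body and 2000 bp flanks (x axis, log axis, units of the authors' caller) for the 9 core genes (red) and the 27 related genes (blue), in order of signal. Crosses, placed at the left with no value, mark genes with no conservative summit, and the dashed line at 1326 marks the limit of the 2% of peaks with highest signal, beyond which lie 4 core and 6 related genes.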

How the data were processed

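ChIP-seq peak lists on ce11 were used for 2 biological replicates of 1 group: each replicate has a thresholded and a ranked list, and 2 more such pairs combine the libraries. Per the deposited readme, they come from alignments and an item named by accession alone; no aligner, peak caller or version is named there or in the labels. Deposited values used were the signal per peak, the score (a scaled IDR, highest value 1000, lowest 830 in thresholded lists) and, in ranked lists, the deposited −log10 of the global IDR. The thresholded lists derive from 1 more such item and lack some ranked peaks within the IDR limit of 0.01 (102 of 5897 in the conservative pair), so a peak can be missing for another reason than its IDR; none of the peaks so missing from any list lay in the window of a member or related gene. The deposited lists hold no read counts, so depth is unknown and intervals cover counting error only.

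Genes came from Ensembl release 115 and sequence from RefSeq, both WBcel235, whose chromosome lengths held every peak. The microRNA names were matched through the RefSeq gene table. A peak belonged to a gene when its summit fell in the body or 2000 bp flanks; replicate summits were matched within 100 bp. Computation used Python 3.11.15, pandas 2.3.3 and SciPy 1.17.1. The GC expectation was run on simulated tiles, drawn independently at the rates of the same GC strata. That checks the computation alone, since real summits can share an interval and need not be independent. Members and lists were chosen with earlier results of these data known, so no set test was run. Named genes were all members, all related genes with a summit, genes nearer a member summit than the member, and the neighbours of lin-42 in order of signal; related genes without a summit, genes annotated over a summit and M04C9.2, whose window overlaps that of lin-41, are also named, outside that rule.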

Additional observations from a re-analysis of the deposited data

How the results depend on the processing

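The count of members with a peak stayed between 6 and 8 in the alternatives to list, flank and overlap, with 1 exception: in gene bodies with no flank it was 5, because the hbl-1, lin-41 and lin-29 summits lie outside their genes. The number of member summits was 13 among the 2898 peaks of highest signal, by construction of the shorter list, and 18 to 31 otherwise. Leaving out a replicate gave 8 members in each list, 22 to 24 summits, and a ratio to the GC expectation of 1.13 to 1.6. Other settings gave ratios of 1.11 to 1.49. The background share of protein-coding genes was 29.6% with the second list, 21.9% to 26.6% with a replicate left out, 16% for the peaks of highest signal, 13% in gene bodies, 20.4% and 38.4% with flanks of 1000 bp and 5000 bp, 26.8% by interval overlap, 31% for genes at least as long as lin-46 and 46.9% for genes of at least 5000 bp. Of 50 alternative values for the percentile of a member's strongest peak, 15 moved by more than the spread between the replicates, among them 1 each for hbl-1 and lin-66 through the flank, as given above. The count for the related genes ran from 14 to 24. The length limit of 5000 bp, the expected number of genes and the alternatives for related genes were added after seeing the data. No paired analysis was possible because the series has a single group.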

Other observations

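Some conservative peaks combine a top reproducibility score with a low signal. The list holds 138 peaks (2.38%) with a signal under 20, and 92 of them carry the highest score of 1000. The members hold 3 of the 138: the hbl-1 summit 1890 bp upstream of the gene start (13.9) and the lin-42 summits of 12.7 and 11.1. The hbl-1 summit and the lin-42 summit of 12.7 had no ranked peak within 100 bp in either replicate. Their place in the counts above rests on the whole-series lists alone.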
